A study of Rattus norvegicus with 8 samples.

Results

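The matrix metalloproteinases (MMPs) and their tissue inhibitors (TIMPs) described here are 10 genes, Mmp7, Mmp8, Mmp9, Mmp12, Mmp13, Mmp14, Mmp19, Timp1, Timp2 and Timp3, out of 23487 in the deposited table. They were taken by symbol, and the list was chosen by looking at earlier results of these same counts, so the fold changes of its genes between both particles are given as a description and without p-values. The RNA came from peritoneal macrophages (CD11b/c high, His48 dim) sorted by flow cytometry from female Wistar rats, 8 weeks old, 15 days after an intraperitoneal injection of 2 mg of carbon nanotubes. The particle was either CNT-7 (MWCNT-XNRI-7, needle-like, 4 rats with the numbers 3, 5, 10 and 11) or CNT-T (tangled, 4 rats with the numbers 1, 2, 12 and 13). All 8 libraries are of rats given one of these particles and none is of an untreated rat, so each difference is between CNT-7 and CNT-T. Levels are given as CPM (counts scaled to a library of 1000000), which are not corrected for transcript length and compare rats for one gene, not genes with each other. Each rat's library held between 27195157 and 33732981 counts, and 3 counts correspond to between 0.0887 and 0.109 CPM, which was taken as the smallest level a rat can show. All 13 macrophage markers examined were above 3 counts in some rat, with a summed level between 20971 and 26994 CPM in the CNT-7 group and between 29150 and 41283 CPM in the CNT-T group. Lyz2 made up most of this sum, and 8 of the 13 separated the groups, 6 being lower (Lyz2, C1qb, C1qc, Csf1r, Fcgr1a and Adgre1) and 2 higher (Cd14 and Gata6) in every CNT-7 rat. Markers of other cells were low but not all absent. Wt1 and Upk3b of the mesothelium, Mpo and Ctsg of neutrophils and Epx and Prg3 of eosinophils had no count in any rat. The 5 eosinophil markers summed to between 0.18 and 9.33 CPM with CNT-7 and between 0.11 and 0.36 CPM with CNT-T, the highest being CNT-7 rat 3 through Ccr3 (8.74 CPM). The 7 lymphocyte markers found in the table summed to between 2.06 and 9.08 CPM with CNT-7 and between 1.51 and 2.77 CPM with CNT-T, Cd3e being higher in every CNT-7 rat. The 6 dendritic cell markers summed to between 5.68 and 11.8 CPM and between 4.37 and 8.38 CPM in the same order, and Xcr1, Ccr7 and Clec9a were higher in every CNT-7 rat. The sums of the lymphocyte and dendritic cell markers were highest in CNT-7 rat 5. The part of these cells in the results that follow was not tested.

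MMPs are zinc-dependent endopeptidases that cut collagens, elastin, laminins and other proteins outside the cell. Most are secreted as inactive proenzymes, and their activity is set by activating proteases such as plasmin and furin and by the TIMPs, small proteins that occupy the catalytic site. In macrophages the best known members are MMP-12, the macrophage metalloelastase, and MMP-9, a gelatinase that acts on type IV collagen. Transcript levels do not show how much active enzyme was present.

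The rodent collagenase, stromelysin, elastase and matrilysin genes lie side by side on one chromosome, and many promoters of this cluster are known to hold a site for AP-1, the dimer of Fos and Jun proteins. The promoters of 3 genes of the cluster are shown because Mmp7 and Mmp12 were the members with the largest relative excess in CNT-7, whereas Mmp13 had no count in any rat. That of Timp1, which also was higher in CNT-7, is given beside them. It has no exact match to the AP-1 letters TGANTCA, N being any base. It does hold TGAGTAA, which differs from those letters in a single base. The promoter of Mmp8, not printed here, likewise holds TGACTCC. Near matches were not searched for across all promoters, so their share is not known and nothing is read from them. A search for exact letters does not exclude an AP-1 site in Timp1 or in any other promoter without an exact match. Each window reaches from 250 bases before to 50 bases after the RefSeq gene start (build GRCr8), at chr8:13132793-13133092 (plus strand) for Mmp7, chr8:12866402-12866701 (plus strand) for Mmp12, chr8:12782579-12782878 (plus strand) for Mmp13 and chrX:3771073-3771372 (minus strand) for Timp1. The bases run 5′ to 3′, and the capitals mark exact matches to the AP-1 letters.
Mmp7: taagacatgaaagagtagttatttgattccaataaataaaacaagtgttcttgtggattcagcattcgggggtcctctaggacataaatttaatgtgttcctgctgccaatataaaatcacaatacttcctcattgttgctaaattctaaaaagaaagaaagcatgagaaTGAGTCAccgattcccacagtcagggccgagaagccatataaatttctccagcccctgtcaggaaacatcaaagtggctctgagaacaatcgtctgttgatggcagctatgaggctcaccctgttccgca
Mmp12: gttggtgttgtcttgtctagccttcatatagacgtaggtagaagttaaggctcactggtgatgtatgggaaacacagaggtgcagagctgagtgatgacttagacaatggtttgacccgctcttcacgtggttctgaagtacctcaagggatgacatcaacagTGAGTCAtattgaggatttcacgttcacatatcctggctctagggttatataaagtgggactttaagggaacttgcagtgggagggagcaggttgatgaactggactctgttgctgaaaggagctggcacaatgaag
Mmp13: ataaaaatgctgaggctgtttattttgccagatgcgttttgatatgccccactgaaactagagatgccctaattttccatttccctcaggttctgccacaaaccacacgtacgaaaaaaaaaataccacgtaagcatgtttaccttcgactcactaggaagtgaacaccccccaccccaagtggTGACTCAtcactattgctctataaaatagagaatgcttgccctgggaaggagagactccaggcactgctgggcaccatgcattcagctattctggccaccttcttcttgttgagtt
Timp1: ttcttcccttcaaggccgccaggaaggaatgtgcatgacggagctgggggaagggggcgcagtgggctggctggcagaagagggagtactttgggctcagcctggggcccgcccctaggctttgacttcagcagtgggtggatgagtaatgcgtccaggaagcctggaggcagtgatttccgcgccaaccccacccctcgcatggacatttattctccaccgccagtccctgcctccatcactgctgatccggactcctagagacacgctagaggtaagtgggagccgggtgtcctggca

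A RefSeq window was given for 7 of the 10 genes, the others being Mmp9, Mmp14 and Mmp19. Each window was searched on both strands for TGANTCA (AP-1), AGGAAG (ETS factors), TTCNNNGAA (STAT factors) and TATAAA (the TATA box). The AP-1 letters were present once each in Mmp7, Mmp12 and Mmp13, beginning 80, 87 and 66 bases before the start, and 7.33% of all 33469 windows of this length held them. TATAAA followed downstream in all 3, beginning 43, 39 and 47 bases before the start, and occurred in 14.2% of all windows. Mmp7 also held a TATAAA further upstream, 140 bases before the start. Mmp8 had no exact AP-1 match but a TATA match on the opposite strand. It also held a STAT match (8.87% of all windows) and ETS matches (34.5% of all windows). Mmp7 and Mmp13 held 1 ETS match each and Timp1 held 2, whereas Timp2 and Timp3 had none of the 4 motifs. None of these matches overlapped with a match of another motif. The content of G and C was between 41.0% and 49.7% in the 4 MMP windows and between 61.3% and 70.3% in the 3 TIMP windows. The same AP-1 and TATA letters stood in the promoters of Mmp7 and Mmp12, which had counts, and in that of Mmp13, which had none. Whether these letters bear on the levels was not tested.

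In the fit across all genes, 12124 genes passed the filter on low counts and were tested, and 6 of the 10 MMP and TIMP genes were among them. Mmp8, Mmp13, Mmp14 and Timp3 were below that filter. At an adjusted p-value under 0.10 (edgeR's quasi-likelihood test), 27.9% of all genes tested were called, 13.9% being higher and 14% lower in CNT-7. Of the 6 tested genes here, 5 were called higher (Mmp7, Mmp12, Mmp19, Timp1 and Timp2) and 1 lower (Mmp9). In 5 of them both groups of 4 rats were fully apart, against 24.9% of all genes tested. Nothing is read from these counts, because the genes were chosen with this contrast known. Furthermore, Mmp7 and Mmp12 passed the filter through the CNT-7 rats alone and therefore had to differ. The median log2 fold change (log2 FC, CNT-7 over CNT-T) of the 6 genes was 0.99, and that of all genes tested was 0.0083. For the same reasons, nothing is read from the difference of these medians.

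**Figure D1:**
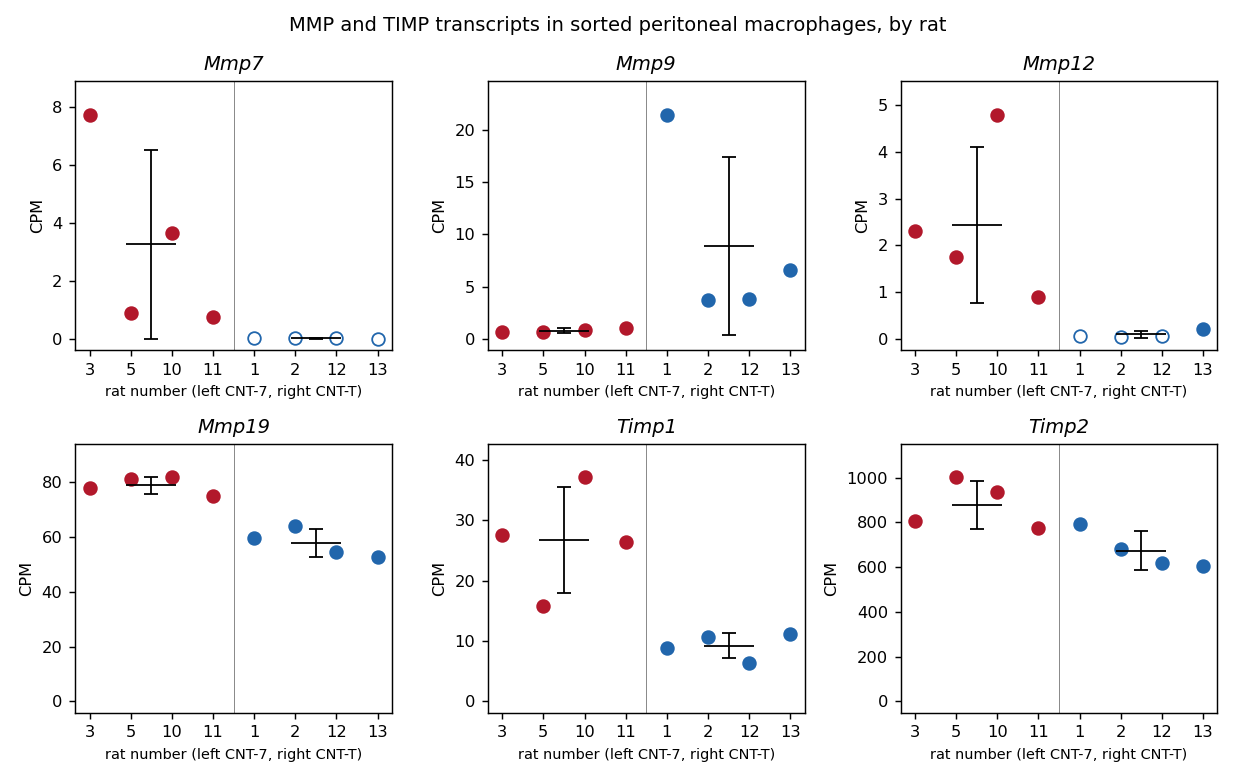
CPM of the 6 tested genes in each rat (x axis, rat number, CNT-7 in red on the left and CNT-T in blue on the right; linear y axis from 0), with the mean and SD of each group in black (an SD that would reach below 0 is cut there) and open circles for rats with fewer than 3 counts. Only Timp2 has groups that overlap, and Mmp9 is the gene with higher values in CNT-T, with rat 1 at 21.5 CPM.

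Mmp7 encodes matrilysin, a short MMP without the hemopexin domain that also sheds proteins from cell surfaces. In the CNT-7 rats 3, 5, 10 and 11 it had 235, 26, 101 and 21 counts, that is 7.72, 0.87, 3.65 and 0.76 CPM. The CNT-T rats 1, 2 and 12 had 1 count each and rat 13 had 0, all below the smallest level. The groups were thus fully apart, while the CNT-7 rats differed among themselves by 10.2-fold between the highest and the lowest. With the counts of each group pooled, 383 against 3, the ratio of CNT-7 over CNT-T was 136, with a 95% interval of 46.0 to 660.3 that covers counting error only and not the spread between rats. The mean was 3.25 ± 3.27 CPM (SD, n = 4) in the CNT-7 group, and rat 3 contributed most of it. In these bulk libraries, fewer cells with a transcript and less transcript per cell cannot be told apart, for this and for every gene that follows.

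Mmp12 encodes macrophage metalloelastase, which degrades elastin and is a known product of activated macrophages. Its level was 2.30, 1.74, 4.80 and 0.90 CPM in the CNT-7 rats 3, 5, 10 and 11, from 70, 52, 133 and 25 counts. In the CNT-T rats 1, 2, 12 and 13 it was 0.065, 0.030, 0.066 and 0.21 CPM, from 2, 1, 2 and 6 counts. Every CNT-7 rat was above every CNT-T rat, the lowest CNT-7 rat lying 4.21-fold above the highest CNT-T rat. The log2 FC was 4.69 (standard error 0.67), and the ratio of the pooled counts, 280 against 11, was 27.0 with a 95% interval of 14.9 to 54.8 for counting error. Without CNT-T rat 13, the only rat of its group with more than 2 counts, the log2 FC was 5.42. Rat 11 was the lowest CNT-7 rat for Mmp12 as well as for Mmp7, but the highest was rat 10 for the former and rat 3 for the latter.

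Mmp9, which encodes gelatinase B, was the member with lower levels in CNT-7. The CNT-7 rats 3, 5, 10 and 11 had 20, 18, 23 and 29 counts (0.66, 0.60, 0.83 and 1.05 CPM). The CNT-T rats 1, 2, 12 and 13 had 658, 127, 115 and 183 counts (21.5, 3.75, 3.79 and 6.55 CPM). The groups did not overlap, and the lowest CNT-T rat was 3.58-fold above the highest CNT-7 rat. Here the CNT-7 rats lay close together and the CNT-T rats were wide apart, with CNT-T rat 1 far above the other 3 of its group. The log2 FC was -3.50 (standard error 0.61), and without CNT-T rat 1 it was -2.58, that is, closer to 0 but in the same direction. Hence Mmp9 on the one side and Mmp7 and Mmp12 on the other moved in opposite directions between the particles.

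MMP-9 and MMP-8 are stored in the granules of neutrophils, and levels of neutrophil markers are therefore given beside both genes. Of 12 markers, 8 had more than 3 counts in some rat, Mpo and Ctsg had none in any rat, and the summed level was between 49.9 and 81.3 CPM in the CNT-7 group and between 61.7 and 130 CPM in the CNT-T group. Most of this sum came from Csf3r and Padi4, which monocytes and macrophages are also known to express. Padi4, an enzyme that converts arginine to citrulline in proteins, was between 7.71 and 22.6 CPM with CNT-7 and between 30.4 and 61.7 CPM in the CNT-T rats, the highest value being that of CNT-T rat 1. S100a8, a calcium-binding protein of granulocytes and monocytes, was between 1.34 and 3.25 CPM in the CNT-7 group and between 4.19 and 9.03 CPM in the CNT-T group, again with CNT-T rat 1 at the top. These 2 were the markers of the list whose groups did not overlap, and both were lower in CNT-7, as Mmp9 was. Other markers of the list ran the other way or overlapped. Csf3r ranged from 29.1 to 57.0 CPM with CNT-7 and from 18.1 to 57.4 CPM with CNT-T. Cxcr2 ranged from 0.72 to 2.04 CPM and from 0.072 to 1.24 CPM, and Camp from 0.18 to 0.37 CPM and from 0.033 to 0.21 CPM, both lying mostly higher with CNT-7. Elane ranged from 0.53 to 1.31 CPM in the CNT-7 group and from 0.91 to 1.42 CPM in the CNT-T group, with overlap. The part of other cells in the level of Mmp9 was not tested.

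Mmp8, the gene of neutrophil collagenase, had 11 counts (0.37 CPM) in CNT-7 rat 5 and none in the other 7 rats. In that rat S100a9, the partner of S100a8, was at 3.69 CPM, against 0.14 to 0.65 CPM in the other 7 rats. The part of neutrophils in these 11 counts was not tested.

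**Figure D2:**
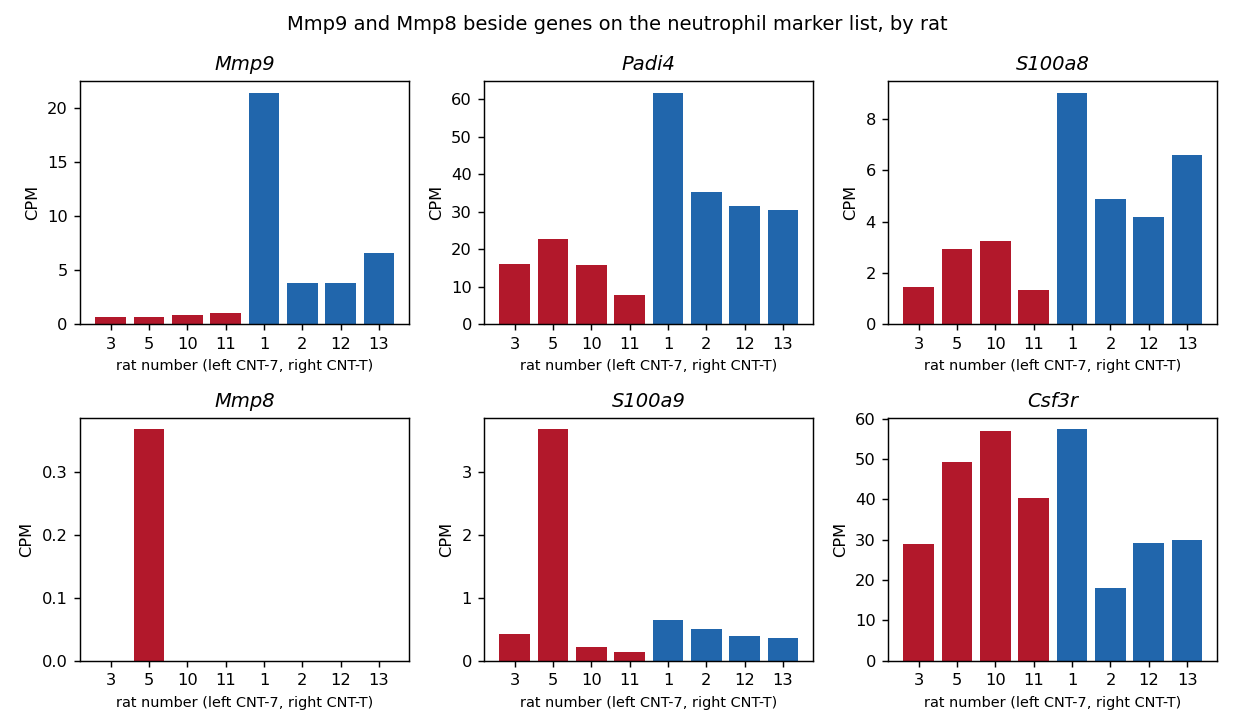
CPM of Mmp9 and Mmp8 and of 4 genes of the neutrophil marker list in each rat (x axis, rat number, CNT-7 in red on the left and CNT-T in blue on the right; y axis from 0). CNT-T rat 1 has the highest bar for Mmp9 (21.5 CPM), Padi4 (61.7 CPM) and S100a8 (9.03 CPM), and CNT-7 rat 5 for Mmp8 (0.37 CPM) and S100a9 (3.69 CPM).

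Mmp19, an MMP that is widely found in tissues and acts on basement membrane proteins, was steady between rats. It had 77.7, 81.1, 81.8 and 75.0 CPM in the CNT-7 rats 3, 5, 10 and 11, and 59.8, 64.0, 54.4 and 52.6 CPM in the CNT-T rats 1, 2, 12 and 13. The groups did not overlap, although the lowest CNT-7 rat was only 1.17-fold above the highest CNT-T rat. The log2 FC was 0.45 (standard error 0.076). The coefficient of variation was 3.99% in the CNT-7 group and 8.96% in the CNT-T group, with a median over all genes tested of 11.3% and 11.1%. By comparison the coefficient of variation was 100.5% for Mmp7 and 68.8% for Mmp12 in the CNT-7 group and 95.4% for Mmp9 in the CNT-T group.

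Mmp13 and Mmp14 were at or near 0 in both groups. Mmp13, the main interstitial collagenase of rodents, was without a count in all 8 rats. A count of 0 over the 8 libraries allows a level of up to 0.0126 CPM (3 counts over all of them), a limit for counting error only. Mmp14, a membrane-bound MMP that activates the proenzyme of MMP-2 together with TIMP-2, had 6, 1, 1 and 0 counts in the CNT-7 rats 3, 5, 10 and 11 and 0, 0, 2 and 1 in the CNT-T rats 1, 2, 12 and 13. The 1 rat above 3 counts was CNT-7 rat 3, with 0.20 CPM, and no difference between the groups was detectable at this depth (ratio of the pooled counts 2.83, 95% interval for counting error 0.68 to 16.6).

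In the RefSeq annotation (GRCr8), Mmp13, Mmp12, Mmp8 and Mmp7 belong to a run of 10 neighbouring protein-coding genes that are all MMPs, in the order Mmp13, Mmp12, Mmp1b, Mmp3, Mmp1, Mmp10, Mmp8, Mmp27, Mmp20 and Mmp7. Of these 10, 5 (Mmp13, Mmp1b, Mmp3, Mmp1 and Mmp10) had no count in any rat. Mmp27 reached 1 count and Mmp20 reached 3 counts in a single rat each. Mmp12 and Mmp7, at opposite parts of the run, were the genes of the cluster with more than 11 counts in any rat. The closest flanking genes with counts did not share the size of their differences. Dcun1d5, beside Mmp13, had 39.0 CPM in the CNT-7 group and 38.2 CPM in the CNT-T group (log2 FC 0.029, standard error 0.12, edgeR adjusted p = 0.89). On the other side, Tmem123 had 77.3 and 66.0 CPM (log2 FC 0.23, standard error 0.084, edgeR adjusted p = 0.084) and Birc2 39.7 and 38.8 CPM (log2 FC 0.034, standard error 0.072, edgeR adjusted p = 0.78).

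**Figure D3:**
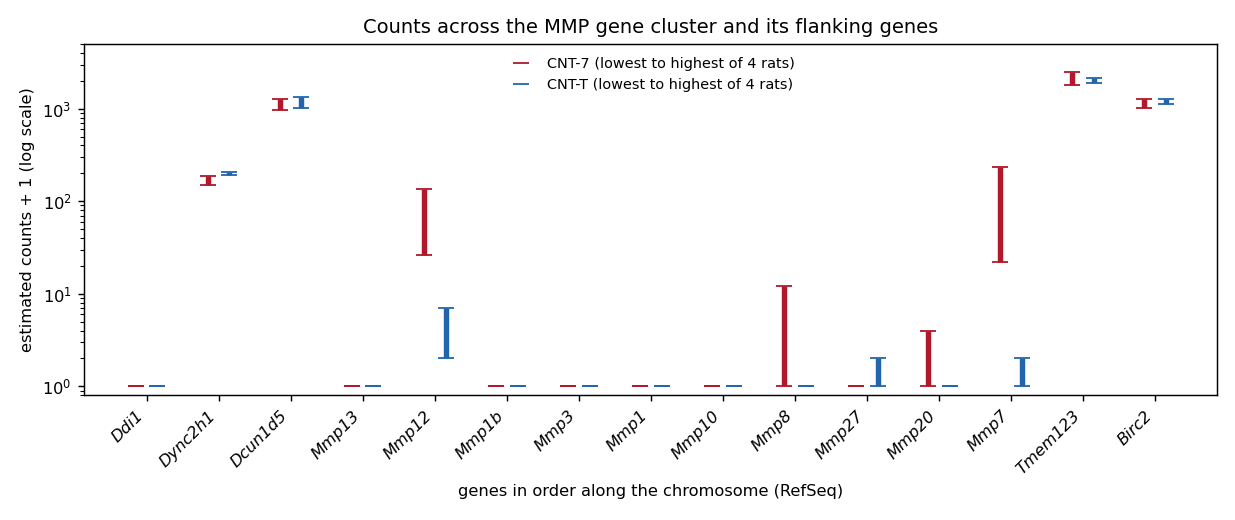
Estimated counts plus 1 on a log scale (y axis) of the MMP gene cluster and its matched flanking protein-coding genes in their order along the chromosome (x axis, not to scale), each bar running from the lowest to the highest of 4 rats, CNT-7 in red and CNT-T in blue. Mmp12 and Mmp7 show bars of 25 to 133 and 21 to 235 counts in the CNT-7 group, whereas the other MMPs of the cluster lie at the bottom of the axis or, for Mmp8 and Mmp20, reach 11 and 3 counts in a single CNT-7 rat.

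The inhibitors were examined next. Because fibroblasts and mesothelial cells are known to make TIMPs and MMPs, their markers were read first. The 8 fibroblast markers summed to between 0.76 and 1.81 CPM with CNT-7 and between 0.20 and 0.89 CPM in the CNT-T rats, with 6 of 8 above 3 counts in some rat and Col1a1 and Dcn higher in every CNT-7 rat. The 8 mesothelial markers summed to between 0.29 and 1.01 CPM and between 0.18 and 0.46 CPM, with 3 of 8 above 3 counts. The part of these cells in the TIMP and MMP levels was not tested.

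Timp1, an inducible TIMP that binds the proenzyme of MMP-9 and also acts as a growth factor, had 27.6, 15.8, 37.1 and 26.4 CPM in the CNT-7 rats 3, 5, 10 and 11. In the CNT-T rats 1, 2, 12 and 13 it had 8.90, 10.6, 6.40 and 11.1 CPM. The groups did not overlap, and CNT-7 rat 5 came closest to the CNT-T rats. The means were 26.7 ± 8.73 and 9.26 ± 2.13 CPM (SD, n = 4 each), with a log2 FC of 1.53 (standard error 0.26).

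Timp2, which inhibits most MMPs and takes part in the activation of pro-MMP-2, had 805, 1001, 934 and 775 CPM in the CNT-7 rats 3, 5, 10 and 11. The CNT-T rats 1, 2, 12 and 13 had 793, 680.0, 618 and 605 CPM. CNT-T rat 1 was above CNT-7 rat 11, so that the groups overlapped. The log2 FC was 0.38 (standard error 0.12). The call of Timp2 was lost without CNT-7 rat 5, without CNT-T rat 12 or without CNT-T rat 13, when the log2 FC was 0.31, 0.34 or 0.33. Timp3, the TIMP that is held in the matrix and that also inhibits ADAM-17, was without a count in all 8 rats, with the same upper limit as Mmp13.

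Some of these genes share their place with others on the RefSeq assembly. Overlap here is that of whole gene spans, and shared exon sequence was not examined. Timp1 overlaps with Syn1, which had 130 to 236 counts per rat in the CNT-7 group and 103 to 160 in the CNT-T group. Syn1 was not called, whereas Timp1 was. Timp2 overlaps with Cep295nl (35 to 69 and 8 to 26 counts in the same order), which was called higher in CNT-7, as Timp2 was. Timp3 overlaps with Syn3 (0 to 2 and 1 to 6 counts). The sources used here do not say whether the quantification took account of strand. The counts of the neighbours were below those of Timp1 and Timp2 in every rat. Those of Syn1 were not small beside Timp1, which had 471 to 1028 counts in the CNT-7 group and 194 to 360 in the CNT-T group. The part of the neighbours in the counts of Timp1 and Timp2 was not tested.

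The sums of the MMPs and of the TIMPs were set against each other in each rat. The log2 of summed MMP over summed TIMP counts was -3.23, -3.59, -3.41 and -3.37 in the CNT-7 rats 3, 5, 10 and 11 and -3.30, -3.35, -3.42 and -3.37 in the CNT-T rats 1, 2, 12 and 13. The means were -3.40 ± 0.15 and -3.36 ± 0.049 (SD, n = 4 each), and the groups overlapped. The difference of the means (CNT-7 minus CNT-T) was -0.038, but it was -0.70 without Mmp19 and -1.13 without Timp2. These sums are mostly those of a single gene each, since Mmp19 made up between 73.5% and 96.5% of the MMP sum and Timp2 between 96.2% and 99.0% of the TIMP sum. Below Mmp19, the make-up of the MMP sum was different. Mmp9 held between 95.8% and 99.5% of the remaining MMP counts in the CNT-T rats and between 6.04% and 38.7% in the CNT-7 rats, where Mmp7 and Mmp12 held most of the rest. These are shares of counts that are not corrected for length and serve to compare rats.

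Among all genes tested, the profiles over the 8 rats closest to that of Mmp19 (root mean square difference of centred log2 CPM) were those of Cd151 (0.040), Wsb2 (0.041) and Slc12a9 (0.050). The closest to Timp2 were Akap13 (0.054), Ostm1 (0.062) and Zfyve1 (0.063). The profiles of Mmp19 and Timp2 themselves had a root mean square of 0.24 and 0.25.

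The surrounding protease system was described with 5 lists of 115 genes, of which 53 were tested and 27 called (21 higher and 6 lower in CNT-7). Over all genes tested 27.9% were called, 13.9% higher and 14% lower, and these shares are the background for each list. The lists were chosen with earlier results of these data known. The share called in a list is therefore a description, and nothing is read from it about the list. Of 17 other MMPs and TIMPs, 16 were in the table and only Mmp2 and Mmp17 were tested. Neither was called by edgeR or by DESeq2, and 0 had an unadjusted p under 0.05. Mmp2, gelatinase A, had 1.38 ± 0.14 CPM in the CNT-7 group and 1.19 ± 0.65 CPM in the CNT-T group (log2 FC 0.21, edgeR adjusted p = 0.72). Mmp17, a membrane-anchored MMP, had 0.70 ± 0.31 and 1.26 ± 0.42 CPM (log2 FC -0.85, edgeR adjusted p = 0.17). Mmp15, chosen after its values were seen, had 4 to 8 counts in every CNT-7 rat and 0 in every CNT-T rat, which is under the filter.

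The list of activators, inhibitors and clearance receptors had 12 tested genes of 21, of which 7 rose and 0 fell in CNT-7 (by DESeq2 also 7 and 0, and 0 lower at an unadjusted p under 0.05), with a median log2 FC of 0.87, beside 13.9% higher and 14% lower over all genes tested. Plau, the urokinase that turns plasminogen into plasmin, rose from 25.1 ± 1.85 CPM in the CNT-T group to 126 ± 62.9 CPM in the CNT-7 group (log2 FC 2.33, standard error 0.31, edgeR adjusted p = 0.0011). Serpinb2, a urokinase inhibitor, had 412 ± 101 CPM in the CNT-7 group and 12.9 ± 5.95 CPM in the CNT-T group (log2 FC 4.99, edgeR adjusted p = 8.1e-05). Furin, which removes the propeptide of membrane-type MMPs, rose with a log2 FC of 0.96 (edgeR adjusted p = 0.00035). Cd44, a hyaluronan receptor that holds MMP-9 at the cell surface, rose with a log2 FC of 0.78 (edgeR adjusted p = 0.00070). Also among the 7 were Reck, a membrane-anchored MMP inhibitor, and Mrc2, a collagen uptake receptor, both under 1 CPM on average over the 8 rats and chosen after their values were seen. Mrc2 passed the filter on low counts through the CNT-7 rats alone, as Mmp7 and Mmp12 did. The urokinase receptor Plaur (98.8 ± 21.9 and 100.5 ± 21.3 CPM), the MMP inducer Bsg and the clearance receptor Lrp1 had log2 FCs of -0.024, 0.091 and 0.0037 and did not pass the threshold.

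The ADAM and ADAMTS genes, many of whose products shed membrane proteins or cut proteoglycans, are relatives of the MMPs. Of 29 on the list, 10 were tested, 4 rose and 2 fell, beside 13.9% and 14% over all genes tested. Adam8, a leukocyte sheddase, rose from 11.1 ± 1.96 to 46.9 ± 15.1 CPM (log2 FC 2.08, edgeR adjusted p = 0.00049) and Adam19 from 64.0 ± 2.33 to 137 ± 22.4 CPM (log2 FC 1.09, edgeR adjusted p = 0.00036). Adam23 (log2 FC -0.84, edgeR adjusted p = 0.030) and Adamts10 (log2 FC -0.84, edgeR adjusted p = 0.0022) fell. Adam9 had a log2 FC of 0.46 and an edgeR adjusted p = 0.088, which exceeded 0.10, so that the call was lost, with a term for low or high rat numbers or when CNT-7 rat 5 or 10 or CNT-T rat 1, 2 or 12 was left out. Adam10, chosen after its values were seen, was the other gene that rose, and Adam17, the TNF-alpha converting enzyme, did not pass the threshold (log2 FC 0.13, edgeR adjusted p = 0.40).

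Of 29 matrix substrates, 11 were tested, 1 rose and 3 fell, with a median log2 FC of -0.17. The share called, 36.4%, was near the 27.9% of all genes tested. As for the other lists, it is no result about these genes as a list. Those that fell were Lamb2, a laminin chain (4.67 ± 0.93 CPM in the CNT-7 group and 10.4 ± 0.87 CPM in the CNT-T group, log2 FC -1.15, edgeR adjusted p = 0.0012), Nid2, a basement membrane linker (log2 FC -0.54, edgeR adjusted p = 0.027), and Bgn, the proteoglycan biglycan (log2 FC -0.95, edgeR adjusted p = 0.053). The adjusted p-value of Bgn exceeded 0.10 (at most 0.13) and its call was lost when CNT-7 rat 3, 10 or 11 or CNT-T rat 1 or 12 was left out. The gene that rose was Sparc, a matricellular protein, with 1.25 ± 0.56 CPM in the CNT-7 group and 0.030 ± 0.042 CPM in the CNT-T group, chosen after its values were seen. It passed the filter on low counts through the CNT-7 rats alone and therefore had to differ. Fn1 (fibronectin) did not pass the threshold (log2 FC 0.12, edgeR adjusted p = 0.50).

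The transcription factors known to act on MMP promoters were mostly measured, with 18 of 19 tested, 9 higher and 1 lower in CNT-7 and a median log2 FC of 0.47, beside 13.9% higher and 14% lower over all genes tested. Of the AP-1 subunits, whose motif is shown above in Mmp7, Mmp12 and Mmp13, Fos rose from 6.39 ± 0.71 to 31.0 ± 14.2 CPM (log2 FC 2.28, standard error 0.28, edgeR adjusted p = 0.00078). Fosb (log2 FC 2.47, edgeR adjusted p = 0.0035), Jun (1.51, edgeR adjusted p = 0.0034), Jund (1.41, edgeR adjusted p = 0.00065) and the related Atf3 (1.69, edgeR adjusted p = 0.00037) rose as well. Etv5 was the gene that fell (log2 FC -0.38, edgeR adjusted p = 0.042), and Ets1, Ets2, Rela, Rel and Nfkb1 did not pass the threshold. Etv4, chosen after its values were seen, was under the filter. It had 0 counts in the CNT-7 group and 27 in the CNT-T group (0.11 to 0.33 CPM per rat). The AP-1 subunits Junb (0.93, edgeR adjusted p = 0.016) and Fosl2 (0.88, edgeR adjusted p = 0.0072) were higher in CNT-7, but Fosl1 did not pass the threshold (-0.79, edgeR adjusted p = 0.40). Of the NF-kappaB subunits, Nfkb2 (0.56, edgeR adjusted p = 0.026) and Relb (0.52, edgeR adjusted p = 0.047) were higher. These further factors were chosen after their values were seen. Whether these factors act on the MMP genes was not tested.

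**Figure D4:**
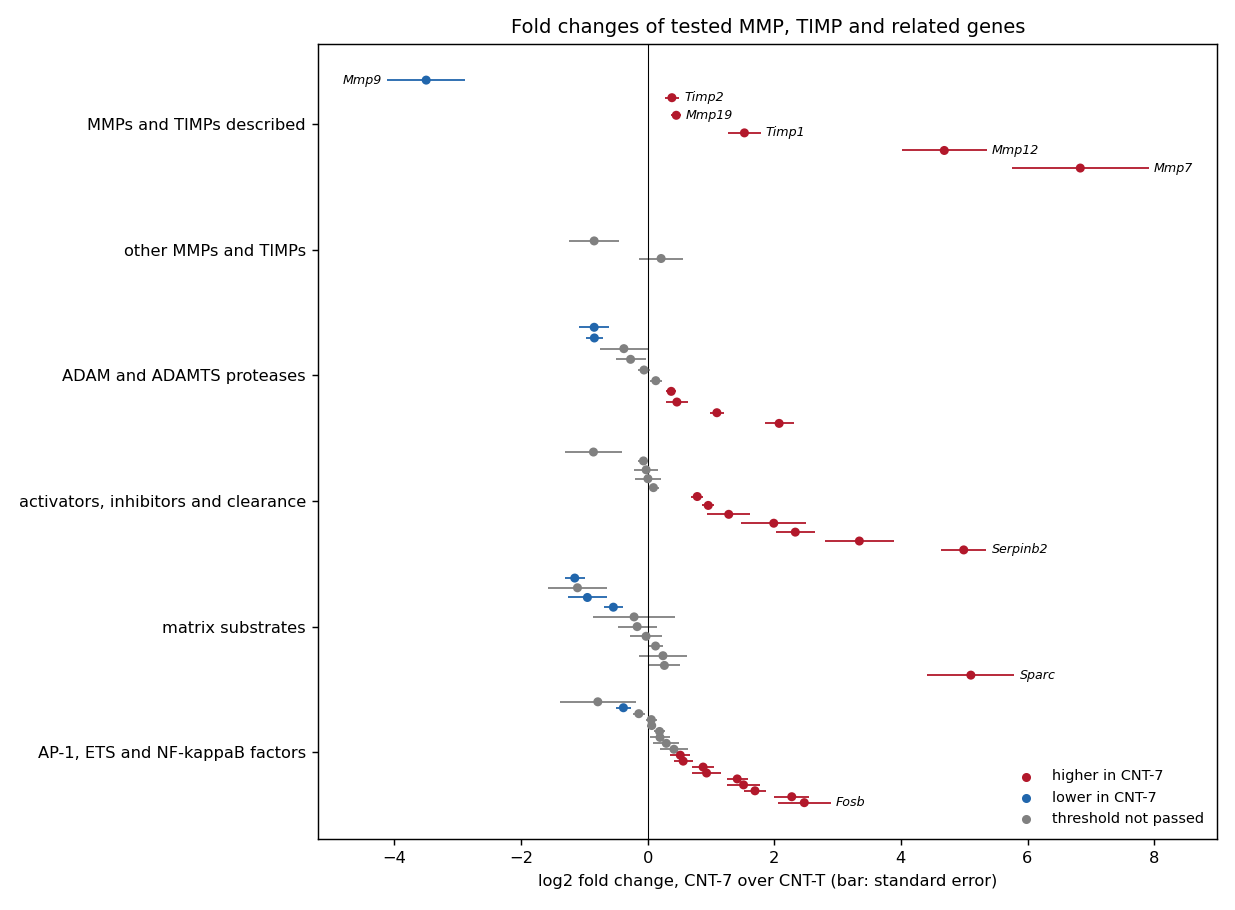
Log2 FC, CNT-7 over CNT-T (x axis), with its standard error for each tested gene of 6 lists (y axis). Genes are in red where called higher, in blue where called lower and in grey where the threshold was not passed. The values of Mmp7, Mmp12 and Sparc rest on few CNT-T counts. Names are given for the MMPs and TIMPs described and for Serpinb2, Sparc and Fosb, the genes with the largest change of their lists. Mmp9 lies at -3.50, opposite to Mmp12 at 4.69, and the highest of the related genes with over 1 CPM is Serpinb2 at 4.99.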

How the data were processed

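The authors sequenced RNA of the sorted macrophages (TruSeq Stranded mRNA libraries) and quantified reads with Salmon against Ensembl rat cDNA (Rnor_6.0). They deposited estimated counts per gene, whole numbers without normalization. Tool versions and the strand setting are not given in the sources used here. Reads of similar genes may be divided between them.

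The genes and lists were chosen with earlier results of these data known. Rats were grouped by their titles, 1 library per animal. CNT-7 and CNT-T (4 rats each) were compared across the table by edgeR 4.0.16 (R 4.3.3, TMM factors, quasi-likelihood test), after filterByExpr (minimum count 10, minimum total 15). The call threshold was the paper's, a Benjamini-Hochberg adjusted p-value below 0.10. A standard error is the fitted log2 FC over the square root of its F statistic. Log2 CPM used a prior count of 2. Ratios of pooled counts have exact conditional 95% intervals, which cover counting error only. Named were all 10 listed genes and, per related list, at most 5 called genes with a mean of at least 1 CPM, except 1 gene that is not reported here. Other genes of the lists were named after their values were seen. Alternatives were DESeq2 1.42.0, upper-quartile normalization, other filters and thresholds, a term for low or high rat numbers, and leaving out each rat. Of 115 related genes, 112 were in the table. The fit was tested on simulated counts. Rats of 1 group differed beyond sampling noise (chi-square of at least 32.3 per degree of freedom). Promoters and gene order are from RefSeq (GRCr8), matched by symbol.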

Additional observations from a re-analysis of the deposited data

Results flagged for a closer look

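Mmp9 and Mmp8 each had 1 rat far from the other 3 of its group, by Dixon's ratio (the gap to the nearest rat over the whole range). Of 15 groups examined, 0.75 would be flagged by chance. Mmp9 reached 21.5 CPM in CNT-T rat 1 (ratio 0.84), the other rats given CNT-T lying between 3.75 and 6.55 CPM. Mmp8 was at 0.37 CPM in CNT-7 rat 5, with 11 counts, and had no count in the other rats given CNT-7 (ratio 1). With the other 3 rats at 0 that ratio is 1 for any count, so that the number expected by chance does not apply to it.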

How the results depend on the processing

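Of 76 fold changes of the 6 tested MMP and TIMP genes under an alternative, 75 moved by less than the spread between rats and 0 changed sign. The exception was Mmp9 without CNT-T rat 1 (-2.58 in place of -3.50). All 6 genes were called with DESeq2, with upper-quartile normalization, without a filter, at an adjusted p-value under 0.05 and with a term for low or high rat numbers. With at least 10 counts in every rat, 4 were tested and called, Mmp7 and Mmp12 being left out by that filter. Without a filter, 33 related genes were called in place of 27, and 1 in place of 0 among the other MMPs and TIMPs. With at least a 2-fold change, 4 of the 6 genes, 1006 genes in all and 14 of the 27 related genes were called. Leaving out each rat gave 5 to 6 of these genes, 2578 to 3515 genes in all and 24 to 28 related genes. Without CNT-7 rat 3 the log2 fold change of Mmp7 was 5.95 in place of 6.83, a fitted value that depends on the prior count.

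The difference in the log2 of summed MMP over summed TIMP (CNT-7 minus CNT-T) was -0.038, and by construction the same with DESeq2 size factors. It was -0.70 without Mmp19 and -1.13 without Timp2, each of these genes making up most of its sum. It lay between -0.094 and 0.023 when each rat was left out, being above 0 without CNT-7 rat 5. Scaling by coding length was not run, as no transcript lengths were used here. No paired analysis applied, because each rat was given a single particle and the labels name no pairs.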
